A study of Caenorhabditis elegans with 18 samples.

Results

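The 10 genes described here encode parts of the brush border and terminal web of the Caenorhabditis elegans intestine. They are the actin act-5, the membrane linker erm-1, the actin-binding protein eps-8, the intermediate filament genes ifb-2, ifc-1, ifc-2, ifd-1 and ifd-2, the proton pump subunit vha-6 and the peptide transporter pept-1. They were taken by name from a table of 20395 genes, and all 10 were found and passed the filter on low counts. RNA of whole worms had been sequenced after exposure to 1 of 5 benzimidazoles, a class of drugs against parasitic worms that bind beta-tubulin. The study asked which transcripts differ after each drug, and 18 libraries fell into 6 groups of 3.

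Every group, the controls included, was the strain CB3474 ben-1(e1880)III, mutant in the beta-tubulin gene that makes wild-type worms sensitive to these drugs. No group with a working ben-1 was among the samples. The drugs were fenbendazole (FBZ) and its oxidised form oxfendazole (OxBZ), albendazole (ABZ), thiabendazole (TBZ) and mebendazole (MBZ), each at 1.13 mM for 4 h, and the control group received the solvent DMSO alone. Cultures of about 20000 first-stage larvae had been grown at 20 °C for about 70 h on E. coli OP50 in liquid medium. The protocol calls the animals adult, while the source label calls them mixed larval stages. TBZ libraries are numbered 2 to 4. No label says which libraries shared a culture, so p-values measure the spread between these libraries, which may be technical. Each library is a whole animal pool, so fewer intestinal cells and less RNA per intestinal cell cannot be told apart.

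Intestinal cells of C. elegans face the gut lumen with a dense brush border of microvilli, each built on a core of actin filaments. The filaments are anchored in the terminal web beneath the apical membrane, where a sheet of intermediate filaments, the endotube, surrounds the lumen and runs to the apical junctions. ACT-5 is the actin of these microvilli, ERM-1 ties actin to the apical membrane, and EPS-8 caps and bundles actin at microvillus tips. IFB-2 is the partner that the other intestinal filament proteins need to build the endotube. VHA-6 is the membrane subunit of the proton pump that acidifies the lumen, and PEPT-1 carries short peptides into the cell together with protons.

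Library totals ran from 57010263 to 67277284 counts, so 1 read was worth at most 0.0181 CPM (the usual depth-scaled read count, here relative to the TMM-scaled library total, and the scale of every level below unless per kb is stated). The lowest count of any of the 10 genes was 267 reads, for ifd-1 in an OxBZ library, and the highest was 76005, for act-5 in a DMSO library. The ben-1 transcript lay between 49.8 and 67.1 CPM in all libraries. DMSO replicate 2 and ABZ replicate 2 stood apart on the first principal component, at 92.3 and 81.8, and major sperm protein transcripts summed to 3440 and 3032 CPM in them, against at most 837 CPM in every other library. DMSO replicate 2 was the highest of the 3 DMSO libraries for 8 of the 10 genes and the highest of all 18 for 6. The part of the sperm transcripts in the results was not tested, and counts are therefore also given without DMSO replicate 2. All 7 intestine markers were detected in every library. Their summed level was 2134 to 2364 CPM in OxBZ and 2899 to 2936 CPM in FBZ, and 4401 to 5818 CPM in the ABZ, MBZ, TBZ and DMSO libraries.

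The brush border transcripts differed widely in abundance. In DMSO act-5 was the most abundant per length of exon, at 734 ± 298 CPM per kb (mean ± SD, n = 3 here and below). The filament gene ifb-2 stood at 198 ± 58.6 CPM per kb, erm-1 at 161 ± 20.5, ifd-2 at 128 ± 6.17 and vha-6 at 108 ± 35.7. In this order act-5 stood clear of ifb-2 by more than both SDs together, erm-1 stood clear of ifd-2 in the same way, and ifb-2 with erm-1 and ifd-2 with vha-6 overlapped. Below them came ifc-1 at 85.0 ± 49.6 CPM per kb, ifc-2 at 54.2 ± 14, pept-1 at 40.9 ± 25.8 and eps-8 at 28.5 ± 4.91. The intervals of mean ± SD of vha-6 and ifc-1, ifc-1 and ifc-2, ifc-2 and pept-1, and pept-1 and eps-8 overlapped. The lowest was ifd-1, at 8.08 ± 3.66 CPM per kb, clear of eps-8. Reads of act-5 could be shared with the 4 other actin genes, which are similar in sequence, and how reads with several matches were counted is not given in the sources used here.

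**Figure D1:**
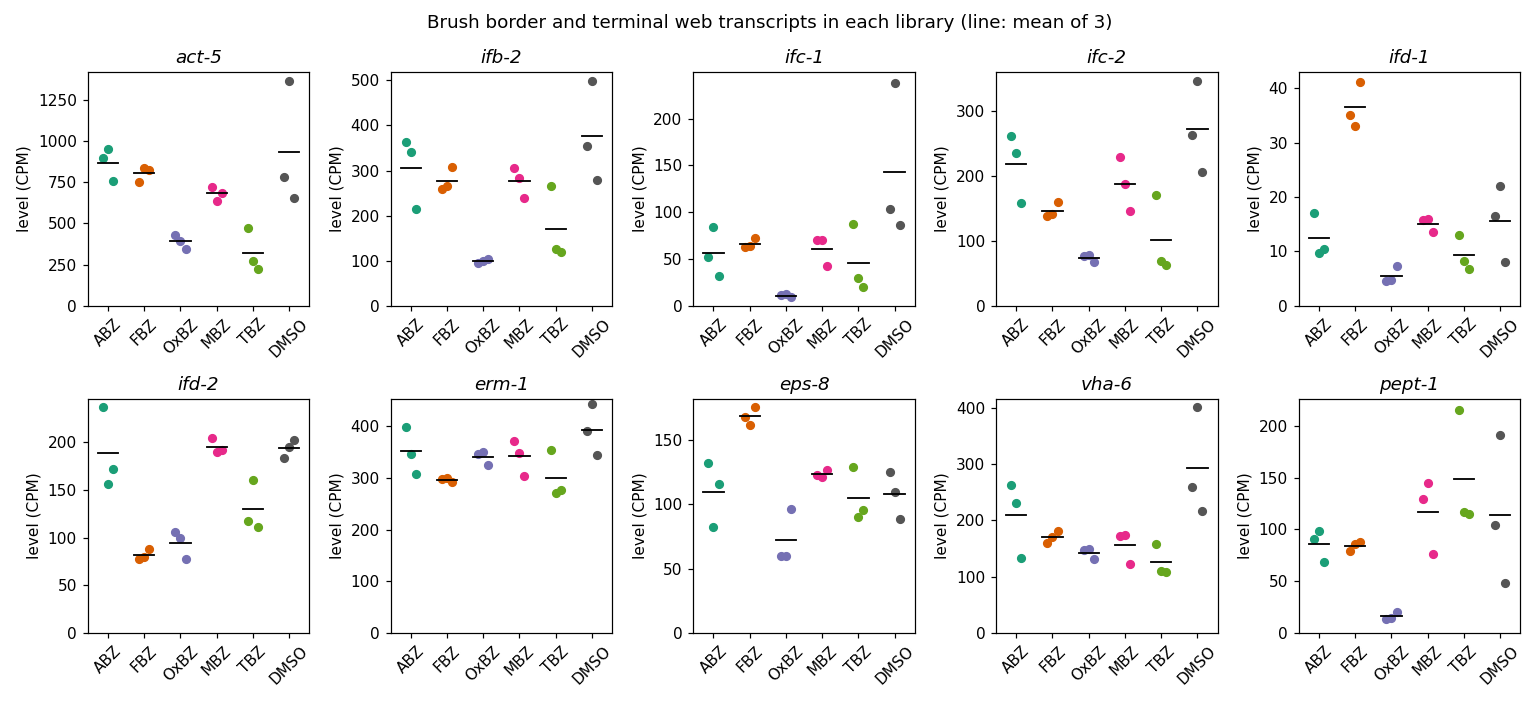
Level of each of the 10 transcripts in CPM (y axis, from 0) in every library of the 6 groups (x axis), with a line at the mean of 3. OxBZ libraries sit below all DMSO libraries for 8 genes, FBZ libraries sit above all DMSO libraries for ifd-1 and eps-8, and DMSO replicate 2 is the highest of all libraries for 6.

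OxBZ lowered this set of transcripts most broadly, TBZ lowered 5 of the 10, FBZ moved genes in both directions, MBZ gave no call, and ABZ gave none without pairing and 1, the fall of ifc-1, once libraries were paired by number. A call is an adjusted p under 0.05 in edgeR's quasi-likelihood test over all 17484 genes tested. Under OxBZ 9 of 10 fell and none rose, where 21.5% of all tested genes fell and 21.2% rose. Under TBZ 5 fell and none rose, against 3.17% and 3.06% of all tested genes. Under FBZ 2 rose and 4 fell, against 24.3% and 27.4%. The FBZ counts are close to these shares and are no result about the set. The median log2 change of the 10 was -1.37 under OxBZ, -0.94 under TBZ, -0.44 under FBZ, -0.33 under MBZ and -0.31 under ABZ, while the median over all tested genes lay between -0.01 and 0.01. All 5 comparisons share the same 3 DMSO libraries. Without DMSO replicate 2 the calls were 8 lower under OxBZ, 1 lower under TBZ (act-5), and 2 higher and 1 lower under FBZ.

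**Figure D2:**
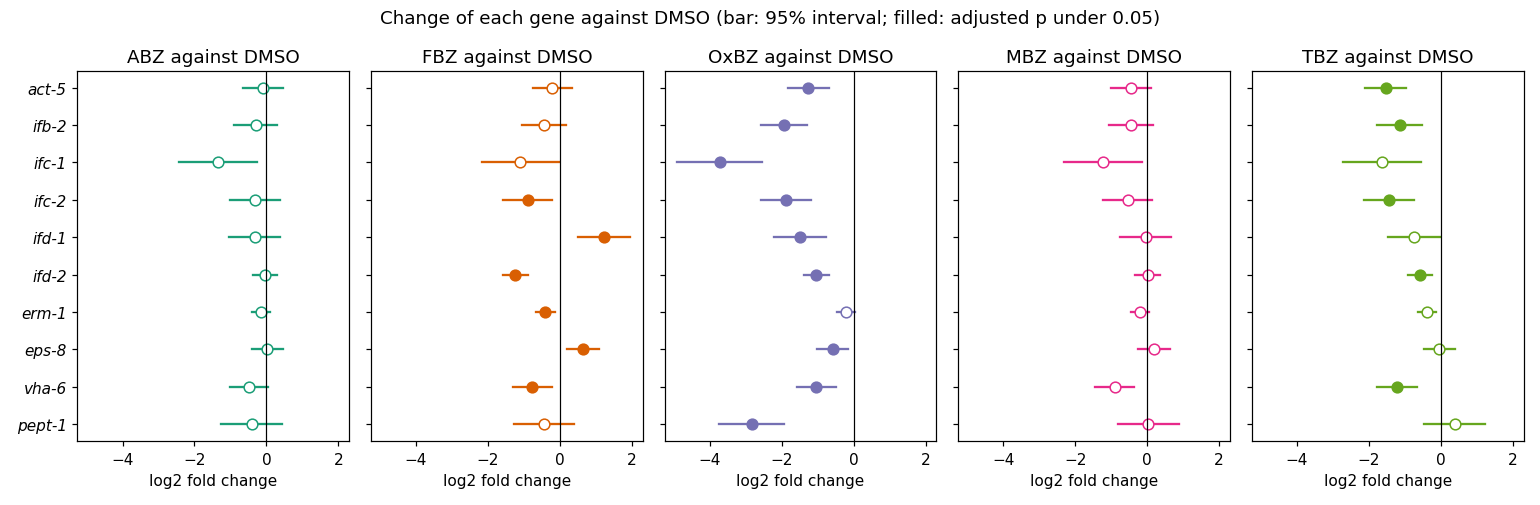
Log2 fold change of each gene against DMSO (x axis), 1 panel for each drug, with its unadjusted 95% interval as a bar and filled points for adjusted p under 0.05. OxBZ has 9 filled points left of 0, TBZ has 5, FBZ has 4 left and 2 right, and ABZ and MBZ have none.

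The microvillar actin act-5 fell under OxBZ and TBZ. Its levels were 429.5, 394 and 347 CPM in OxBZ replicates 1 to 3 and 470.2, 273 and 225 CPM in TBZ replicates 2 to 4. In DMSO they were 779, 1363 and 654 CPM. Every OxBZ and TBZ library lay below every DMSO library, and TBZ replicate 2 lay well above the other TBZ libraries. The log2 fold change was -1.26 ± 0.26 (SE) under OxBZ (adjusted p = 0.00205) and -1.53 ± 0.26 under TBZ (adjusted p = 0.00367). Without DMSO replicate 2 the OxBZ value was -0.94, still called. FBZ libraries held 752 to 839 CPM, ABZ libraries 757 to 949.9 CPM and MBZ libraries 639 to 719.6 CPM. All of these lay within the range of the DMSO libraries except MBZ replicate 2, which was just below it, and the 95% intervals of the log2 change were -0.66 to 0.45 for ABZ and -1.01 to 0.10 for MBZ.

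The membrane linker erm-1 was the steadiest of the 10. It held 325, 347 and 350.2 CPM in OxBZ libraries against 344, 390.4 and 444 CPM in DMSO libraries, so the groups overlapped. The log2 fold change under OxBZ was -0.21 ± 0.12, with a 95% interval of -0.46 to 0.05 and adjusted p = 0.173. FBZ libraries, at 293, 298 and 299.8 CPM, all lay below the DMSO libraries, and this log2 fold change of -0.40 ± 0.12 passed (adjusted p = 0.0115) but not without DMSO replicate 2 (-0.29, adjusted p = 0.0648). Of the 10 genes erm-1 alone gave no call in the test for any difference among the 6 groups (adjusted p = 0.0512). This test was passed by 9 of the 10 and by 69.5% of all genes. With DESeq2 and with the replicate number as a block all 10 passed, erm-1 included.

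The actin-capping gene eps-8 moved in opposite directions under FBZ and OxBZ. It held 167, 162 and 176 CPM in FBZ libraries, all above the 125, 109.8 and 88.2 CPM of DMSO replicates 1 to 3, a rise of 0.64 ± 0.21 (adjusted p = 0.0176). OxBZ replicates 1 and 2 held 59.8 and 59.5 CPM, but replicate 3 held 96.4 CPM and overlapped DMSO. The OxBZ log2 fold change of -0.58 ± 0.21 passed at adjusted p = 0.0344, and the call was lost with the OxBZ and DMSO libraries alone (adjusted p = 0.123) and in 4 of the 6 fits that left out 1 OxBZ or DMSO library. The FBZ call was lost without DMSO replicate 3 (adjusted p = 0.0735) and without FBZ replicate 3 (adjusted p = 0.0502). TBZ, MBZ and ABZ libraries ranged from 81.9 to 132 CPM with no call.

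All 5 filament genes of the set fell under OxBZ, and the size of the fall differed widely among them. The common partner ifb-2 held 94.1, 98.6 and 103 CPM in OxBZ libraries against 354, 499 and 279 CPM in DMSO libraries. Its log2 fold change was -1.94 ± 0.29 (adjusted p = 0.000194), a level 0.261 times that of DMSO. TBZ replicate 2 held 267 CPM and replicates 3 and 4 held 126 and 118 CPM, all below DMSO, for a change of -1.15 ± 0.29 (adjusted p = 0.0295). This TBZ call was lost in 3 of the fits that left out 1 library (adjusted p up to 0.145). FBZ, MBZ and ABZ libraries ranged from 214 to 363 CPM and overlapped DMSO.

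The steepest fall of any of the 10 was that of ifc-1, which encodes 1 of the filament partners of IFB-2. OxBZ libraries held 11.1, 12.5 and 8.83 CPM, against 103, 238 and 86.6 CPM in DMSO replicates 1 to 3. This is a log2 fold change of -3.72 ± 0.55 (95% interval -4.91 to -2.53, adjusted p = 0.000169), or 0.0757 times the DMSO level, and -3.20 without DMSO replicate 2. ABZ libraries (52.1, 84.1 and 32.2 CPM), MBZ libraries (70.2, 69.7 and 42.1 CPM) and FBZ libraries (62.3, 63.6 and 72.8 CPM) also lay below all DMSO libraries. These changes, -1.35 ± 0.50 for ABZ, -1.23 ± 0.50 for MBZ and -1.11 ± 0.50 for FBZ, did not pass without pairing (adjusted p = 0.26, 0.251 and 0.077). With the replicate number as a block, which ties the libraries of all groups by number, the ABZ change of ifc-1 did pass (adjusted p = 0.0445). It also passed with the block over ABZ and DMSO libraries alone. TBZ replicate 2, at 87.7 CPM, overlapped DMSO, while replicates 3 and 4 stood at 29.8 and 20.4 CPM.

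For ifc-2, which also serves in the excretory canal, the lower groups were OxBZ, TBZ and FBZ. OxBZ libraries held 76.5, 77.4 and 67.5 CPM, TBZ libraries 169.9, 68.6 and 63.4 CPM and FBZ libraries 138, 141 and 159 CPM, against 264, 346 and 206 CPM in DMSO libraries. None of these 3 groups overlapped DMSO. The log2 fold changes were -1.88 ± 0.33 for OxBZ (adjusted p = 0.000582), -1.43 ± 0.33 for TBZ (0.0184) and -0.90 ± 0.32 for FBZ (0.0307). Without DMSO replicate 2 the TBZ and FBZ calls were lost, at adjusted p = 0.0701 and 0.129, and the FBZ call was also lost without each FBZ library in turn (adjusted p = 0.0558 to 0.0832). The TBZ call was lost in 3 of the fits that left out 1 library (adjusted p up to 0.0978). Summed excretory canal markers were 139 to 149 CPM in OxBZ, 124 to 228 CPM in TBZ, 141 to 151 CPM in FBZ and 144 to 195 CPM in DMSO, and their part in the ifc-2 result was not tested.

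The filament genes ifd-1 and ifd-2 went in opposite directions under FBZ. The scarce ifd-1 held 35.2, 33.2 and 41.2 CPM in FBZ libraries, all above the 16.5, 22.1 and 8.11 CPM of DMSO replicates 1 to 3, a rise of 1.23 ± 0.34 (adjusted p = 0.00813). In the same libraries ifd-2 held 77.8, 79.4 and 88.6 CPM, all below its 184, 195.6 and 203 CPM in DMSO, a log2 fold change of -1.24 ± 0.16 (adjusted p = 8.1e-05). Both calls remained without DMSO replicate 2.

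Under OxBZ both fell. Here ifd-1 held 4.57, 4.65 and 7.40 CPM, a log2 fold change of -1.49 ± 0.34 against DMSO (adjusted p = 0.00396, or 0.0523 with the OxBZ and DMSO libraries alone), and ifd-2 held 106, 99.8 and 77.2 CPM, a change of -1.04 ± 0.16 (adjusted p = 0.000241). TBZ libraries held 117, 161 and 111 CPM of ifd-2, a change of -0.58 ± 0.16 (adjusted p = 0.0464). This TBZ call was lost in 4 of the fits that left out 1 library (adjusted p up to 0.200). The DMSO libraries of ifd-2 lay close together, unlike those of the other filament genes. ABZ and MBZ left ifd-2 within 95% intervals of -0.39 to 0.30 and -0.33 to 0.35.

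The makeup of the filament transcripts of this set varied within and between groups. Another filament gene of the intestine, ifp-1, is not in the set and is left out of the sums here. Summed over ifb-2, ifc-1, ifc-2, ifd-1 and ifd-2, per kb of exon, ifd-2 made up 45% ± 4.5 in OxBZ, 40.3% ± 13.6 in TBZ, 36.6% ± 3.43 in MBZ, 34.3% ± 6.80 in ABZ, 18.9% ± 0.317 in FBZ and 28.3% ± 7.22 in DMSO. The OxBZ share of ifd-2 thus overlapped that of TBZ within their SDs, and the FBZ share was the lowest. The share of ifc-1 was 4.64% ± 0.538 in OxBZ, 8.97% to 13.7% as the group means of the other drugs and 17.0% ± 5.30 in DMSO. The share of ifd-1 was 6.59% ± 0.283 in FBZ, 1.75% to 2.21% as the group means of the other drugs and 1.66% ± 0.475 in DMSO. The share of ifb-2 was 50.7% ± 0.298 in FBZ, 37.6% to 43.2% in the other drugs and 41.5% ± 2.38 in DMSO. Shares sum to a whole, so 1 member's share also moves when the others change, and they are given as a description with no test.

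Of the apical membrane genes, vha-6 fell under OxBZ, TBZ and FBZ. It held 146, 149 and 131 CPM in OxBZ libraries, 158, 111 and 108 CPM in TBZ libraries and 159, 170.3 and 182 CPM in FBZ libraries, against 259, 400.4 and 216 CPM in DMSO libraries. No library of these 3 groups reached the lowest DMSO library. The log2 fold changes were -1.04 ± 0.25 for OxBZ (adjusted p = 0.00573), -1.22 ± 0.25 for TBZ (0.0115) and -0.78 ± 0.25 for FBZ (0.0195). Without DMSO replicate 2 the OxBZ call held at -0.80, while TBZ (adjusted p = 0.0527) and FBZ (0.135) did not pass, and FBZ did not pass without FBZ replicate 1 either (0.0616). The TBZ call was lost in 3 of the fits that left out 1 library (adjusted p up to 0.073). MBZ libraries, at 172, 173 and 123 CPM, also lay below DMSO, with a change of -0.90 ± 0.25 that did not pass (adjusted p = 0.107) but passed with DESeq2 (0.0155).

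The peptide transporter pept-1 separated OxBZ from every other group. OxBZ libraries held 13.7, 14.2 and 20.3 CPM, against 104, 191 and 48.1 CPM in DMSO replicates 1 to 3, a log2 fold change of -2.83 ± 0.42 (95% interval -3.73 to -1.93, adjusted p = 0.000167), or 0.140 times the DMSO level. Outside OxBZ the lowest library of all was the DMSO library at 48.1 CPM. TBZ libraries, by contrast with the other genes, held 216, 116 and 114 CPM, with a change of 0.38 ± 0.39 against DMSO that did not pass (adjusted p = 0.555, 95% interval -0.46 to 1.22). The DMSO libraries themselves spread by more than the ABZ, FBZ or MBZ libraries did, with an SD of 72.0 CPM around a mean of 114 CPM.

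ABZ and MBZ gave no call for any of the 10 genes with edgeR. At an unadjusted p under 0.05, 1 gene was lower under ABZ and 2 were lower under MBZ, and DESeq2 called 0 under ABZ and 1 under MBZ (vha-6). Among all tested genes 2.2% were called under ABZ and 1.48% under MBZ. Libraries of ABZ and DMSO with the same number deviated from their group means together, with correlations of 0.845, 0.904 and 0.679 across genes, so the numbers were treated as pairs for this comparison. For numbers 1 to 3 the correlations were 0.130, 0.00522 and -0.123 for FBZ with DMSO, and -0.676, 0.544 and 0.225 for OxBZ with DMSO. For MBZ with DMSO they were -0.129, 0.0455 and 0.556, and for TBZ with DMSO, numbers 2 and 3, they were 0.0812 and 0.429. No label says whether FBZ, OxBZ, MBZ or TBZ shared cultures with DMSO, and the part of culture in their differences was not tested. With the replicate number as a block ifc-1 was called lower under ABZ, at -1.32 (adjusted p = 0.0445) over all libraries and -1.31 (adjusted p = 0.00335) with the ABZ and DMSO libraries alone. The fit over all libraries ties every group by number, and only the other fit pairs ABZ with DMSO alone. In the 3 pairs ifc-1 and ifc-2 were lower under ABZ each time, as were 18.4% of all tested genes, 5 of the 10 were lower in 2 pairs, and 3 were lower in 1.

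The libraries of a group did not overlap those of DMSO for 8 of 10 genes under OxBZ, all lower, where 23.9% of all tested genes behaved so. Under TBZ 5 genes were lower without overlap (10.7% of all genes). Under FBZ 5 were lower and 2 higher without overlap (32.6% and 33.1%). Under MBZ 2 were lower (7.93%) and under ABZ 1 (5.04%). The TBZ calls were less firm. With TBZ and DMSO libraries alone in the fit edgeR called none of the 10 (6 at an unadjusted p under 0.05), with act-5 at -1.54 and adjusted p = 0.219, while DESeq2 over all libraries called 7. Leaving out TBZ replicate 3 or 4 left 2 and 1 calls, and leaving out TBZ replicate 2 gave 6.

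The drugs were compared with each other at the same dose and time in all 10 pairs. Fenbendazole is a sulfide and oxfendazole is its sulfoxide, albendazole carries a propylthio group where fenbendazole carries a phenylthio group, mebendazole carries a benzoyl group there, and thiabendazole has a thiazole ring in place of the carbamate of the others. FBZ was higher than OxBZ for 7 of the 10 genes and lower for none, where 29.5% and 30.5% of all tested genes were called so. The largest differences were those of ifd-1, at 2.72 ± 0.36 on the log2 scale (95% interval 1.95 to 3.48, adjusted p = 2.03e-05), ifc-1, at 2.62 ± 0.53 (0.000738), and pept-1, at 2.39 ± 0.41 (0.00021). The differences in ifb-2 (1.5 ± 0.29, adjusted p = 0.000523), eps-8 (1.23 ± 0.21, 0.000169), act-5 (1.05 ± 0.26, 0.00335) and ifc-2 (0.98 ± 0.32, 0.0171) passed as well. No difference between the sulfide and the sulfoxide passed for ifd-2 (95% interval -0.55 to 0.14), erm-1 (-0.45 to 0.06) or vha-6 (-0.28 to 0.80).

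OxBZ stood below the other carbamates too for most of the 10 genes. The median log2 difference over all tested genes was 0.085 for ABZ against OxBZ and -0.14 for OxBZ against MBZ. ABZ was higher than OxBZ for 8 of the 10 genes (22% of all genes were called higher) and OxBZ was lower than MBZ for 8 (20.1% were called lower), with none the other way. For pept-1 these differences were 2.42 ± 0.41 between ABZ and OxBZ (adjusted p = 0.000537) and -2.86 ± 0.42 between OxBZ and MBZ (adjusted p = 0.000139). For ifc-1 they were 2.38 ± 0.53 (0.00301) and -2.49 (0.00189). The difference between ABZ and OxBZ in erm-1 had a 95% interval of -0.21 to 0.30. Markers of several tissues moved in the same contrasts. Of 7 intestine markers 5 were lower in OxBZ than in ABZ, and 5 were lower than in MBZ, with 1 higher each time. Of 5 muscle markers 3 were lower in OxBZ in each contrast and none higher. Of 5 neuron markers 3 were lower and 1 was higher in each. Of 6 oocyte and germline markers 5 were higher in OxBZ than in ABZ, and 5 were higher than in MBZ. Of all genes 21.4% were called higher in OxBZ than in ABZ, and 22.3% higher than in MBZ. The germline markers summed to 3492 to 4084 CPM in OxBZ, 2841 to 3368 CPM in ABZ and 2589 to 3231 CPM in MBZ. The part of any of these tissues in the differences was not tested.

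OxBZ and TBZ differed in 5 of the 10 genes, all lower in OxBZ (19.1% of all genes). The median log2 difference over all tested genes was -0.10 in this pair. The difference in pept-1 was -3.21 ± 0.43 (95% interval -4.13 to -2.30, adjusted p = 7.21e-05) and that in ifc-1 was -2.09 ± 0.52 (0.00544), while ifb-2, ifd-2 and eps-8 differed by -0.79, -0.46 and -0.54 (adjusted p = 0.0383, 0.0335 and 0.0466). The count fell to 2 to 4 when any 1 OxBZ or TBZ library was left out (2 without OxBZ replicate 2, and 3 without OxBZ replicate 1 or TBZ replicate 2). It was 3 with adjustment over all pairs or with these 2 groups alone. For act-5 and vha-6 no difference passed, with 95% intervals of -0.28 to 0.83 and -0.36 to 0.72.

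The remaining pairs turned on fewer genes. ABZ and FBZ differed in ifd-1 (-1.56 ± 0.34, adjusted p = 0.00298), eps-8 (-0.62, 0.026) and ifd-2 (1.2 ± 0.16, 0.000201), which is 1 gene higher and 2 lower in ABZ where 24% and 18.7% of all genes were so called. FBZ was higher than MBZ for ifd-1 (1.27, 0.0152) and lower for ifd-2 (-1.26, 0.000202), where 12% and 15% of all genes were called. FBZ was higher than TBZ for act-5, ifd-1 and eps-8 and lower for ifd-2 (16.1% and 19.6%). The single call for ABZ against TBZ (3.94% of all genes higher) and for MBZ against TBZ (2.19%) was act-5, higher by 1.43 ± 0.26 in ABZ (0.00466) and by 1.08 in MBZ (0.036) than in TBZ. The MBZ call was lost without any 1 MBZ library, without TBZ replicate 4 and with the replicate block, and both calls were lost with only the 2 groups in the fit. Between ABZ and MBZ none of the 10 was called by edgeR or DESeq2 or at an unadjusted p under 0.05, where 0.206% of all genes were called, and the 95% intervals ran from -0.21 to 0.90 for act-5 and from -0.12 to 0.96 for vha-6. Neither erm-1 nor vha-6 was called in any of the 10 pairs, while act-5, ifd-1, ifd-2 and eps-8 were each called in 6.

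**Figure D3:**
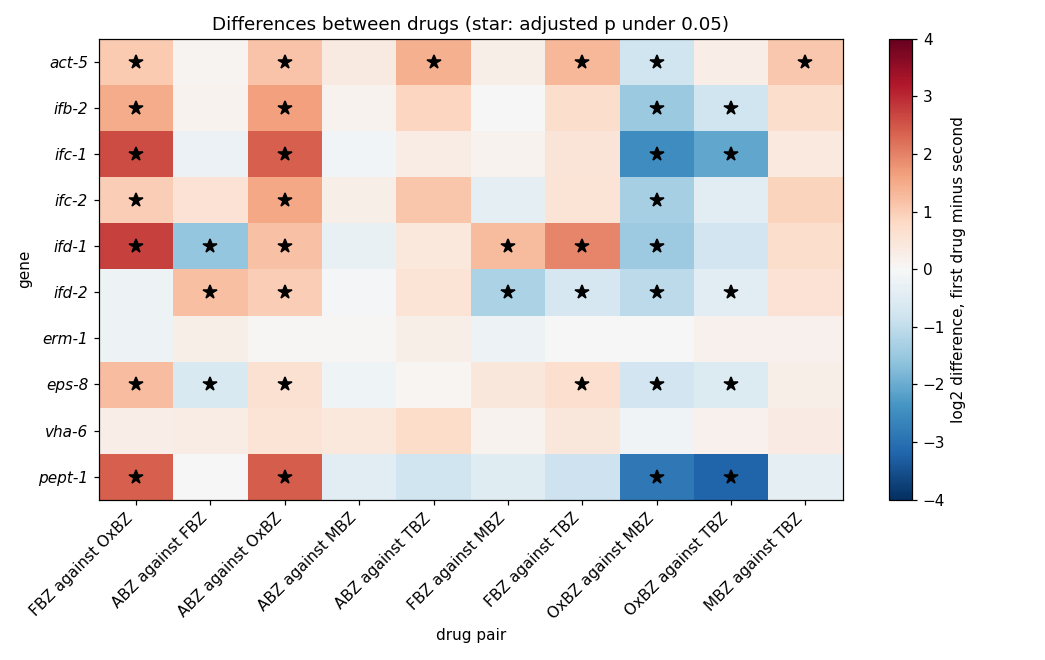
Log2 difference between the 2 drugs of each pair (columns, first drug minus second) for the 10 genes (rows), with a star at adjusted p under 0.05. OxBZ columns carry most stars, with 7 for FBZ against OxBZ and 8 each for ABZ against OxBZ and OxBZ against MBZ, and the rows of erm-1 and vha-6 carry none.

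The 10 transcripts did not move as 1 block across the 18 libraries. Levels of ifb-2 on the log2 scale correlated with those of ifc-2 (r = 0.96) and ifc-1 (r = 0.95), and within groups, after the group means were removed, at 0.97 and 0.92. The correlation of act-5 with ifb-2 was 0.87, and 0.86 within groups. By contrast ifd-2 correlated with ifb-2 at 0.50 over all libraries and at -0.02 within groups, and ifd-1 correlated with eps-8 at 0.92. Libraries share depth, scaling and treatment, and these values are a description only. Outside the 10, the genes of at least 1 CPM most like act-5 were C18B2.5 (r = 0.949), lec-10 (0.948), lys-2 (0.944), nspg-14 (0.932) and F49E2.2 (0.931). Those most like ifb-2 were fbxa-190 (0.983), F10C1.8 (0.98), K06A9.1 (0.972), nrfl-1 (0.966), a scaffold protein of the NHERF family that binds ERM proteins, and sek-6 (0.96). F10C1.8 is the nearest coding neighbour of ifb-2 in the annotation and shares no exon with it.

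Other genes of the same structures followed in part. Counts in these lists stand beside the shares of all tested genes given above, 21.2% higher and 21.5% lower under OxBZ, 24.3% and 27.4% under FBZ, 3.06% and 3.17% under TBZ, and 2.2% and 1.48% either way under ABZ and MBZ. Among 14 terminal web and cortex genes OxBZ lowered 1, ifo-1, the organiser of the intestinal filaments, with a log2 fold change of -1.24 ± 0.17 (63.5 CPM in OxBZ against 149.7 CPM in DMSO, adjusted p = 7.62e-05). TBZ gave 1 call among these 14, also ifo-1, lower (86.7 CPM in TBZ against 149.7 CPM in DMSO, -0.79 ± 0.17, adjusted p = 0.0115). The TBZ list had 0 calls without TBZ replicate 3 or 4, and 3 without DMSO replicate 1 or TBZ replicate 2. Under OxBZ 6 of the 14 rose, by at most 0.36 (cdc-42, a small GTPase of cell polarity), with a median of 0.15 over the 14, and without DMSO replicate 2 the rises were 2. Under FBZ 1 rose and 4 fell, the falls close to the share over all genes. ABZ raised 2, of which bbln-1, known for keeping the filaments at the apical membrane, stood at 86.6 CPM in ABZ and 54.8 CPM in DMSO (0.66, adjusted p = 0.046). MBZ raised sma-5, a kinase that shapes the intestinal tube, by 0.86 (adjusted p = 0.0452). Both ABZ calls were lost on leaving out ABZ replicate 1 or 2 or any 1 DMSO library, and the MBZ call on leaving out MBZ replicate 1 or 3 or DMSO replicate 2 or 3.

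The actins outside the brush border moved less than act-5 under OxBZ and TBZ, and not all in 1 direction. Of act-1, act-2, act-3 and act-4 OxBZ raised act-2 (1244 CPM in OxBZ against 845 CPM in DMSO, 0.56, adjusted p = 0.000194) and lowered act-4 (-0.47, adjusted p = 0.00593), and TBZ lowered act-4 (-0.60, adjusted p = 0.00718). Under TBZ the falls in this list were 0 without TBZ replicate 4 and 3 without TBZ replicate 2. Of 7 further intermediate filament and lamin genes OxBZ raised 1 and lowered 5, with a median of -0.56, and without DMSO replicate 2 it lowered 2. The largest of these falls was that of ifp-1, another filament gene of the intestine (-1.28, adjusted p = 0.0288). FBZ raised ifp-1 (79.9 CPM in FBZ against 20.8 CPM in DMSO, 1.94 ± 0.44, adjusted p = 0.00254). Like ifd-1 and eps-8, ifp-1 was thus higher in FBZ and lower in OxBZ than in DMSO. FBZ also lowered 1 gene of this list, and ABZ and MBZ each lowered 1. Leaving out 1 library gave 0 to 1 calls for ABZ, 1 for MBZ and 1 to 2 for FBZ.

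The 20 other subunits of the proton pump gave 13 falls and 2 rises under OxBZ, with a median of -0.38, and 11 falls under TBZ, with a median of -0.44. Under OxBZ the largest were vha-5 (-1.23), vha-3 (-1.10), vha-12 (-0.82) and vha-11 (-0.68), and under TBZ vha-3 (-0.86), vha-12 (-0.84), vha-13 (-0.72) and vha-11 (-0.64). Without DMSO replicate 2 the falls were 8 under OxBZ and 2 under TBZ, and without TBZ replicate 3 or 4 they were 0 under TBZ. FBZ gave 2 of each. Of 4 further membrane transporters OxBZ lowered nhx-2, the apical sodium-proton exchanger that works beside PEPT-1 (15.8 CPM in OxBZ against 57.8 CPM in DMSO, -1.87 ± 0.25, adjusted p = 7.76e-05), and pept-2 (-0.94, adjusted p = 2.56e-06). In this list FBZ raised 1 and lowered 2, and TBZ lowered 1. Leaving out 1 library gave 2 to 3 calls under FBZ and 0 to 2 under TBZ.

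General intestine markers moved with the brush border genes under OxBZ. Of 7 markers 5 fell (log2 fold changes of -2.49 for pho-1, -1.52 for asp-1, -0.80 for cpr-1, -0.74 for itr-1 and -0.68 for the intestinal transcription factor elt-2) and the esterase ges-1 rose by 0.49 (adjusted p = 0.00555), for a median of -0.74. The falls stayed at 5 whichever library was left out, while the rise was lost without OxBZ replicate 1 or DMSO replicate 1 or 2. FBZ lowered 4 of the 7, with a median of -0.51, and TBZ gave 1 call, elt-2, lower (-0.49, adjusted p = 0.0175). Under TBZ this list had no fall without TBZ replicate 4 or DMSO replicate 3, and 2 falls and 1 rise without TBZ replicate 2. The summed level of the 10 brush border genes was 1183 to 1289 CPM in OxBZ, 2029 to 2234 CPM in FBZ, 1139 to 1981 CPM in TBZ and 2133 to 3809 CPM in DMSO. Relative to the summed intestine markers of the same library this was 0.533 to 0.555 in OxBZ, 0.691 to 0.771 in FBZ, 0.254 to 0.45 in TBZ and 0.39 to 0.71 in DMSO. The DMSO ratios were 0.490, 0.710 and 0.390 in replicates 1 to 3, so the OxBZ ratios lay inside the DMSO range only through replicate 2 and above both other DMSO libraries. Group means of the sums in OxBZ and DMSO were 1244 and 2840 CPM for the 10 genes, and 2283 and 5366 CPM for the markers. By median log2 change the 10 genes fell further than the markers (-1.37 against -0.74), so medians and sums differ here. The part of the general intestinal change in the brush border result was not tested.

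**Figure D4:**
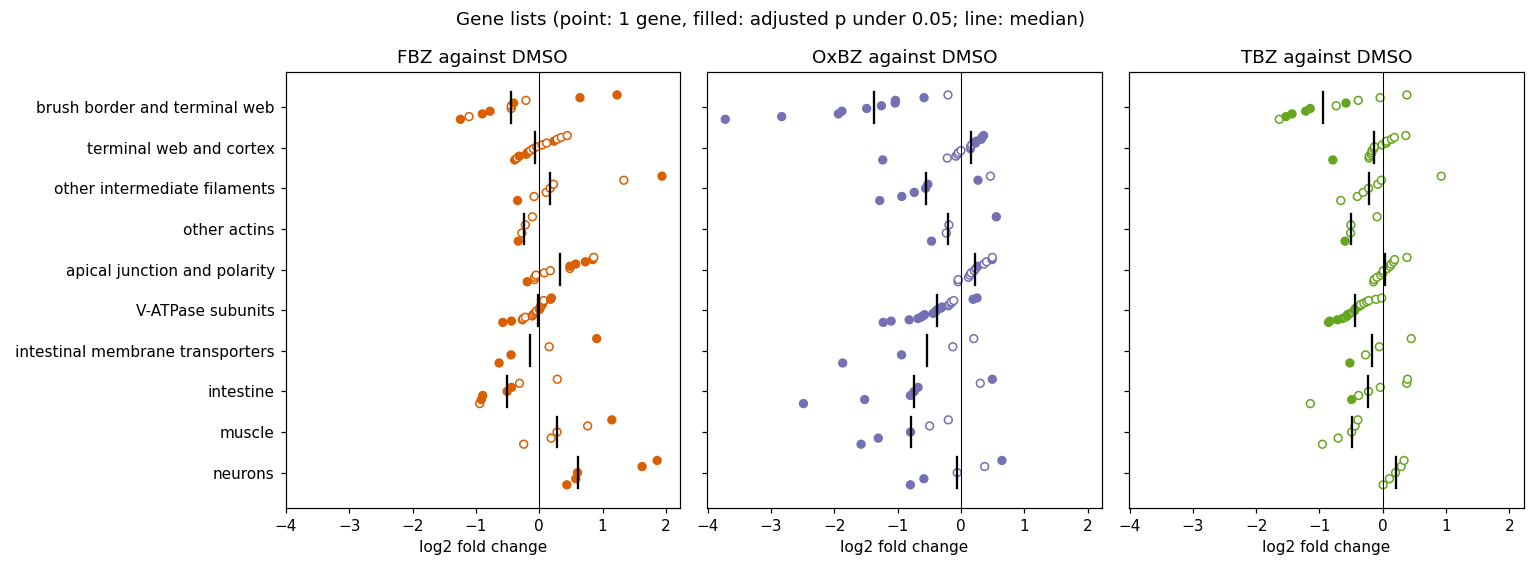
Log2 fold change against DMSO (x axis) of every gene in the brush border set and in each list shown (rows). There is 1 panel each for FBZ, OxBZ and TBZ, with filled points for adjusted p under 0.05 and a line at the list median. Under OxBZ the line of the 10 brush border genes lies at -1.37, that of the intestine markers at -0.74 and that of the terminal web and cortex genes at 0.15.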

How the data were processed

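Raw read counts per gene, deposited by the authors, were used for all 18 libraries. Subread 1.4.6 and featureCounts are named per the submitters' processing notes. The sources used here give no genome build, annotation release, strand setting or treatment of reads with several matches, so no coordinates are printed. Reads were paired, 100 nt long. Symbols came from Ensembl release 115 (19628 of 20395 identifiers matched), and 0 of the 10 genes share an exon with another counted gene there. fgt-1 was not matched.

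In R 4.3.3, filterByExpr (minimum count 10) left 17484 genes and removed 2911. edgeR 4.0.16 fitted 1 quasi-likelihood model with TMM factors to all libraries (12 residual degrees of freedom, common biological coefficient of variation 0.303). Benjamini-Hochberg adjustment ran over every gene of a comparison, at a threshold of 0.05. The SE is the size of the log2 fold change divided by the root of F, and 95% intervals are unadjusted. Likeness is Pearson's r of log2(CPM + 1). The test was tried on simulated data. Replicates all differed by more than sampling noise.

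The text names the 10 genes, up to 4 called genes per list and drug with the largest change, and the 5 genes most like act-5 and ifb-2, by rule. For OxBZ all 6 called intestine markers are named, 2 of them beyond the rule and after their values were seen. Genes, lists and tests were chosen with earlier results of these data known. Same-numbered libraries deviated together in every pair for ABZ with DMSO, which pairs them, the pairing coming from the data alone. MBZ and TBZ libraries numbered 2 and 3 also correlated, at 0.434 and 0.574, and were not paired. Alternatives were RLE factors, library totals alone, no filter, the replicate block, the compared groups alone, DESeq2 1.42.0, leaving out each library, and adjustment over all drug pairs. Promoter motif counts were planned and not run, and no sequences were used here.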

Additional observations from a re-analysis of the deposited data

How the results depend on the processing

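Of 660 values recomputed for single genes, 564 kept their direction and their side of the threshold, 45 lost a call, 13 gained one and 38 changed sign, none of these a called change. The OxBZ comparisons with DMSO, FBZ, ABZ and MBZ kept their counts within 1.5 times under every setting tried.

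The count of called genes moved elsewhere. For ABZ against DMSO it was 0, and 1 with the replicate block, over all libraries or over ABZ and DMSO alone. For FBZ against DMSO it was 6, and 3 with the ABZ and DMSO libraries numbered 2 left out, a choice made after the data were seen. For MBZ against DMSO it was 0, and 1 with DESeq2. For TBZ against DMSO it was 5, 2 with those libraries left out, 0 with the compared groups alone and 3 with the replicate block, in which TBZ replicate 4 is fitted by a block of its own. For ABZ against TBZ it was 1, 5 with adjustment over all pairs, 5 with DESeq2, 2 with library totals alone, 2 with RLE factors and 0 with the compared groups alone. For FBZ against MBZ it was 2, and 4 with the compared groups alone. For MBZ against TBZ it was 1, 3 with adjustment over all pairs, 2 with DESeq2, and 0 with the compared groups alone or the block. For OxBZ against TBZ it was 5, and 3 with adjustment over all pairs or the compared groups alone. The cause was not tested. The block changed no other count beyond 1.5 times.

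Leaving out 1 library at a time gave 0 calls throughout for ABZ against DMSO and ABZ against MBZ, 3 to 6 for FBZ, 8 to 9 for OxBZ, 0 to 1 for MBZ and 1 to 6 for TBZ against DMSO. It gave 2 to 4 for ABZ against FBZ, 6 to 8 for ABZ against OxBZ, 1 to 3 for ABZ against TBZ, 1 to 2 for FBZ against MBZ, 6 to 7 for FBZ against OxBZ, 3 to 7 for FBZ against TBZ, 0 to 3 for MBZ against TBZ, 7 to 8 for OxBZ against MBZ, 2 to 4 for OxBZ against TBZ and 9 to 10 for any difference.

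Uncalled log2 changes against DMSO changed sign. With the libraries numbered 2 left out, act-5 was at 0.17 (ABZ) and 0.19 (FBZ), ifd-1 at 0.13 (ABZ) and 0.27 (MBZ), ifd-2 at 0.042 (ABZ) and -0.026 (MBZ), and pept-1 at 0.033 (ABZ) and 0.17 (FBZ). With library totals alone eps-8 was at 0.13 (TBZ) and ifd-1 at 0.079 (MBZ), and with the block eps-8 was at 0.058 (TBZ). With DESeq2 and with RLE factors ifd-2 was at -0.029 and pept-1 at -0.019 (MBZ). Leaving out 1 library, act-5 ran from -0.30 to 0.28 (ABZ) and -0.41 to 0.19 (FBZ), eps-8 from -0.14 to 0.20 (ABZ) and -0.23 to 0.056 (TBZ), ifd-1 from -0.64 to 0.0057 (ABZ) and -0.35 to 0.27 (MBZ), ifd-2 from -0.25 to 0.076 (ABZ) and -0.105 to 0.043 (MBZ), and pept-1 from -0.78 to 0.18 (ABZ), -0.81 to 0.17 (FBZ), -0.33 to 0.59 (MBZ) and -0.0026 to 0.98 (TBZ).

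Library totals alone moved the median of all genes to 0.17 (FBZ), 0.11 (MBZ) and 0.18 (TBZ). Calls over all genes were then 5339 higher and 2761 lower for FBZ, against 4250 and 4799, and 1647 higher and 355 lower for TBZ, against 535 and 554. Each of the 10 genes held at least 267 reads in every library, and the part of depth in these results was not tested. Libraries of a group were not equally alike. The chi-square per gene between 2 libraries of a group was 7.14 to 17.5 in FBZ, 5.17 to 45.2 in OxBZ, 48.1 to 176 in MBZ, 22.4 to 186 in TBZ, 145 to 217 in ABZ and 150.5 to 216 in DMSO, while the fit takes the spread of a gene as equal in all groups.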

Other observations

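The apical junction and polarity genes hold intestinal cells together at the edge of the brush border and are shared with other epithelia. Of 12 such genes FBZ raised 4 and lowered 1, where 24.3% and 27.4% of all tested genes were so called, with a median log2 change of 0.33. Without DMSO replicate 2 FBZ raised 2 and lowered none, and over all single libraries left out it gave 2 to 6 calls. The 4 raised with all libraries were jac-1 (0.84), ajm-1 (0.73), eat-20 (0.58) and hmr-1 (0.49). OxBZ raised par-6 (0.49) and hmp-2 (0.27) and lowered none, where 21.2% of all genes rose, with a median of 0.22. It raised 1 without DMSO replicate 2, and 4 without DMSO replicate 1 or 3.

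The counts of markers below stand beside the shares of all tested genes, 24.3% higher and 27.4% lower under FBZ, and 21.2% and 21.5% under OxBZ. All 5 neuron markers rose under FBZ, to a summed 349 to 371 CPM in FBZ libraries, against 198 to 238 CPM in DMSO libraries. Without DMSO replicate 2, 4 of the 5 rose. Under OxBZ the muscle myosins myo-1, myo-2 and myo-3 fell, while the 5 muscle markers summed to 2012 to 2683 CPM in OxBZ libraries and 1979 to 4730 CPM in DMSO libraries. All 28 tested major sperm protein genes fell under FBZ, to a summed 37.6 to 58.2 CPM in FBZ libraries, against 472 to 3440 CPM in DMSO libraries. Under OxBZ 7 of these 28 fell, with a median of -1.84, a count close to the share of 21.5% over all tested genes. The falls were 0 without DMSO replicate 2 and 26 without DMSO replicate 1. Of 6 oocyte and germline markers 5 fell under FBZ, with a median of -0.32, and 3 without DMSO replicate 2 or any 1 FBZ library. They summed to 2583 to 2674 CPM in FBZ libraries and 3221 to 3495 CPM in DMSO libraries. Of 5 hypodermis markers 3 fell and 1 rose under FBZ, with a median of -4.05. Their summed level went the other way, at 822 to 1010 CPM in FBZ libraries and 123 to 419 CPM in DMSO libraries. Leaving out 1 library gave 2 to 4 calls in this list. The part of these tissues in the FBZ results was not tested.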
